A study of Homo sapiens with 66 samples.

Results

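The genes described here encode the enzymes of glycolysis from the aldolase step to the enolase step: ALDOA, ALDOC, TPI1, GAPDH, PGK1, PGAM1, ENO1 and ENO2. They were examined for peaks of hypoxia-inducible factor (HIF) subunits in 50 peak lists from chromatin immunoprecipitation followed by sequencing (ChIP-seq). A peak was counted for one of them when its centre lay in the gene body or within 50 kb of a transcription start site (TSS) of the gene and nearer to that gene's TSS than to any other protein-coding TSS in the GENCODE annotation on GRCh37 (hg19). These 8 genes of 19821 protein-coding genes held 284 of the 94952 peaks so assigned, of 131425 peaks in all. All 8 genes had a peak in at least 1 list, as did 61.1% of protein-coding genes, and 5 of the 8 (ALDOA, ENO1, GAPDH, PGK1 and ENO2) had a peak in at least 25 lists, as did 2.21% of protein-coding genes. The rule that assigns peaks to these genes uses no rank or score.

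Aldolase splits fructose 1,6-bisphosphate into a pair of triose phosphates, and the enzymes after it turn these into phosphoenolpyruvate, with NADH formed at the GAPDH step and ATP at the PGK step. Cells short of oxygen rely on glycolysis for ATP, and the genes of this pathway are textbook targets of HIF. HIF is a dimer of an oxygen-regulated α-subunit, HIF-1α or HIF-2α, with the constitutive HIF-1β, and it binds hypoxia response elements whose core reads ACGTG or GCGTG.

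The lists came from 3 established cell lines, with an antibody to HIF-1β or to either α-subunit and 2 libraries for each antibody and state. HKC-8 renal tubule cells were exposed to 3% oxygen for 6 h, or to 0.5% for 6 h, 16 h or 48 h, in an experiment on the severity and duration of hypoxia (24 lists, 237 to 1793 peaks each). In a knockout experiment, CRISPR-Cas9 had been used to disrupt one α-subunit gene in HKC-8, giving the lines HIF-1α KO and HIF-2α KO of 1 clone each, and these lines and the unedited wild type (WT) were kept in 0.5% oxygen for 16 h, without a library for the disrupted subunit (14 lists, 915 to 8279 peaks). RCC4 renal carcinoma cells, which lack functional VHL and hold HIF-α stable in normal oxygen, were kept in normoxia, and HepG2 liver cancer cells in 0.5% oxygen for 16 h (12 lists, 911 to 6851 peaks). Where nothing in the labels ties replicates to separate cultures, p-values measure only the spread between these libraries, which may be technical.

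Read depth is not known from the lists, so every gene was followed by rank. Rank 1 is the peak with the highest score of its list, and a gene takes the rank of its best peak. For tests, ranks were put on a log2 scale counted back from rank 1000, so that rank 1 has the value 9.97 and a gene that was not called, or ranked 1000 or worse, has the value 0. A difference of 1 on this scale is a factor of 2 in rank. A rank is relative to the other peaks of its list, so a lower place does not show that less protein was bound at the site. Some libraries stood apart. The HIF-2α list of replicate 2 at 48 h had 237 peaks and none at any of the 8 genes. In HepG2, same-numbered libraries of the α-subunits moved in opposite directions around their group means (r = −0.736 across 1677 genes, which are not independent replicates), as would be seen if the labels of 1 replicate were exchanged, which was not tested. HepG2 libraries are therefore named by their label, and tests are given with and without them. HKC-8 at 0.5% for 16 h and WT HKC-8 come from separate experiments that share line, oxygen and time but ranked these genes differently, as described with the cell lines.

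The peaks of the 8 genes formed 13 sites when overlapping peaks were merged over all lists, and at each gene the most often called site lay at the promoter or, for TPI1, just inside the gene. Printed here is hg19 sequence of the gene's own strand at those sites, and at the core nearest the distal ENO1 site described below. It holds only part of their cores. Whole sites hold cores at 16 places in ENO1, 15 in GAPDH, 14 in PGK1 and 12 in ALDOA, with overlapping cores counted as 1 place. The GAPDH core nearest its median centre, at −418, is not printed. The GAPDH, PGAM1 and upstream ENO1 windows were chosen after the sites were seen. Capitals mark the response element core, ACGTG or GCGTG on either strand, and CACGTG is a pair of overlapping cores. Windows are 151 bases long where no UTR is touched and 30 bases otherwise. PGK1 has 3 cores in its window, and GAPDH has separate cores upstream and at the start.
ALDOA (chr16:30076765-30076915, + strand): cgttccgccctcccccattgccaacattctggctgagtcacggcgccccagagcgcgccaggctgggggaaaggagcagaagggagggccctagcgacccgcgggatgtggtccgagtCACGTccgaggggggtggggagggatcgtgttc
ALDOC (chr17:26904075-26904225, - strand): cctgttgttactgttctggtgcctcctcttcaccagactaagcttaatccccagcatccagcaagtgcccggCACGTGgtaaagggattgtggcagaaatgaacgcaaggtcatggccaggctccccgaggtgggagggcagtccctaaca
TPI1 (chr12:6977073-6977223, + strand): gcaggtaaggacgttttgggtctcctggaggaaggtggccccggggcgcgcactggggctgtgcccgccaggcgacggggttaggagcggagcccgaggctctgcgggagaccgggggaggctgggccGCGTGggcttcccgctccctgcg
GAPDH upstream (chr12:6642635-6642785, + strand): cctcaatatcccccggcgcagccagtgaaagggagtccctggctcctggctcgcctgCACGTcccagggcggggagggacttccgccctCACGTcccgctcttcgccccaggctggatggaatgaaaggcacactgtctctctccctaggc
GAPDH at the start (chr12:6643547-6643576, + strand): gttttacgggcgCACGTagctcaggcctca
PGK1 (chrX:77359481-77359631, + strand): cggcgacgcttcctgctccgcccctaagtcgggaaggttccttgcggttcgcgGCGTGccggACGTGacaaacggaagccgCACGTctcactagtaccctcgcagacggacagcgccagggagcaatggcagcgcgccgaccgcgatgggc
PGAM1 promoter shared with RRP12 (chr10:99185766-99185795, + strand): ctccGCGTGcttACGTGcgctccgtgactg
ENO1 near the centre (chr1:8938895-8938924, - strand): tcacccccctttcCACGCtactgcagccgt
ENO1 upstream pair (chr1:8939101-8939130, - strand): gagtGCGTGcgggactcggagtACGTGacg
ENO1 farther upstream (chr1:8939137-8939166, - strand): ggtcgagggccggACGTGgggccccagagc
ENO1 distal site (chr1:8963876-8964026, - strand): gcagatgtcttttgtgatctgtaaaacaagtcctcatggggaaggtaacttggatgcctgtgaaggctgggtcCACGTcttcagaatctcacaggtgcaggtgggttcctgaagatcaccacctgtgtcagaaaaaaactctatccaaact
ENO2 (chr12:7023614-7023643, + strand): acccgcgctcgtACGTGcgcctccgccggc

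Counted from the start of the canonical transcript, the cores in these windows lie at −196 in ALDOA, −237 in ALDOC, 508 (intron 1) in TPI1, −989, −957 and −122 in GAPDH, −209, −200 and −181 in PGK1, −176 and −168 in PGAM1, −164, −361, −379 and −406 in ENO1 and −116 in ENO2. The window of 201 bp around the median peak centre held a core at 6 of the 8 most often called sites and at 7 of all 13 sites. The same search found a core in 41% of windows centred on protein-coding TSSs, in 33.9% of those at all merged sites of the series, in 62.5% of those at sites called in at least 5 lists and in 83.9% of those at sites called in at least 25 lists. The exceptions among the most often called sites were GAPDH, whose merged site spans separate groups of cores, and PGAM1, whose peaks were shared with a neighbouring gene. Taken around each peak's own centre, a core was present in 42 of 42 PGK1 peaks, 8 of 8 ALDOC peaks, 33 of 49 ALDOA peaks, 53 of 82 ENO1 peaks, 34 of 57 GAPDH peaks, 17 of 27 ENO2 peaks, 8 of 14 TPI1 peaks and 0 of 5 PGAM1 peaks. The PGAM1 value follows from the nearest-TSS rule. Peaks centred within 100 bp of the cores at −176 and −168 fall to RRP12. Together 68.7% of the peaks of these genes held a core, against 49.6% of all peaks and 69.4% of peaks ranked 1 to 100 in their list. A match is a description and not a proof of a bound element.

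**Figure D1:**
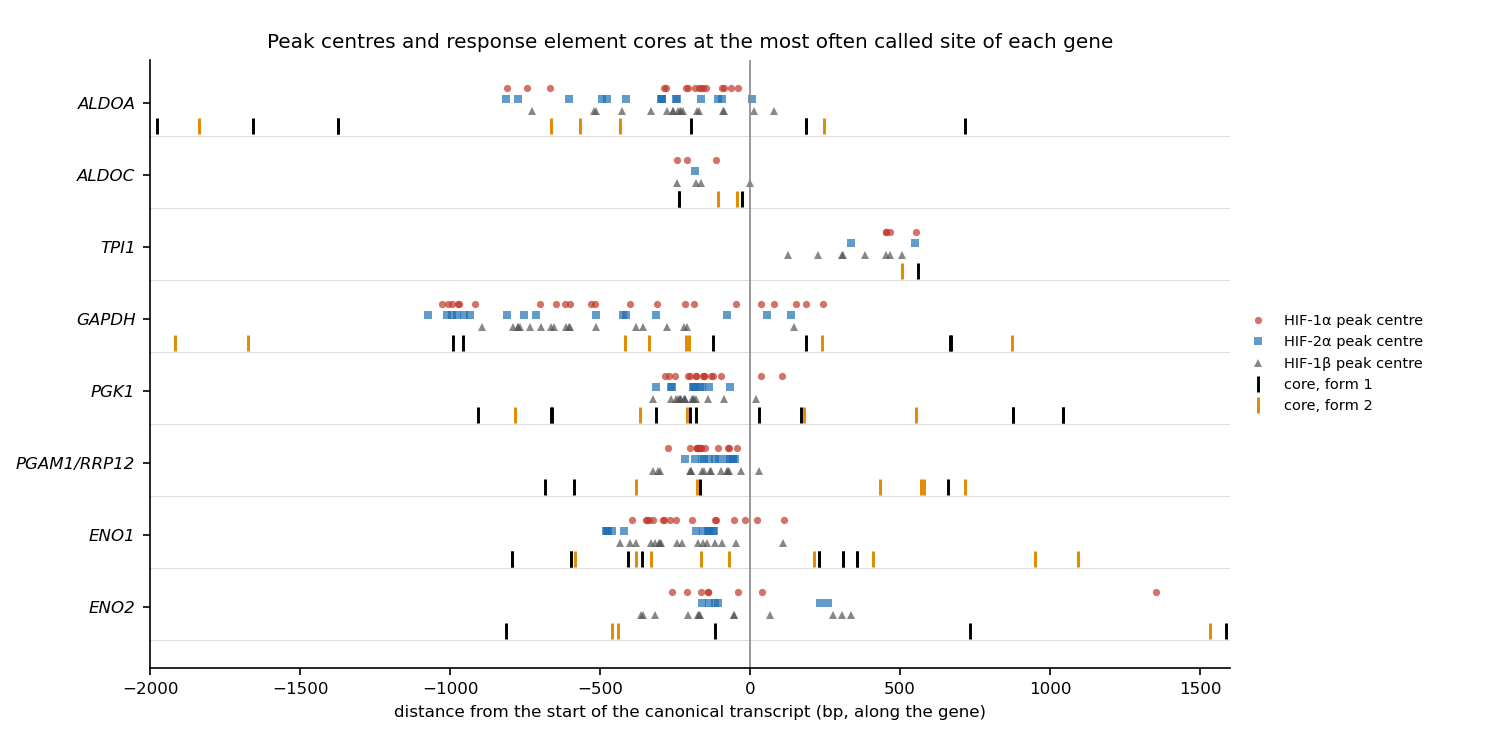
Peak centres and response element cores at the most often called site of each gene, plotted by distance in bp from the start of the canonical transcript along the gene; circles, squares and triangles are HIF-1α, HIF-2α and HIF-1β peak centres of single lists, and black and orange ticks are the ACGTG (form 1) and GCGTG (form 2) core. The row of PGAM1 shows the promoter shared with RRP12. PGK1 centres cluster around its 3 cores between −209 and −181, whereas GAPDH centres spread from about the upstream pair at −989 and −957 to beyond the start, and TPI1 centres lie inside the gene.

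How often and how high each gene was called differed widely among the 8. ALDOA and ENO1 were called in 49 of 50 lists, GAPDH in 48, PGK1 in 42, ENO2 in 27, TPI1 in 14, ALDOC in 8 and PGAM1, by nearest TSS, in 5. In the 16 HIF-1α lists the mean rank value on the log2 scale was 6.88 ± 2.27 for ENO1, 6.31 ± 1.35 for GAPDH, 4.62 ± 1.57 for ALDOA and 4.34 ± 1.46 for PGK1 (SD, n = 16 each). ENO1 and GAPDH, and ALDOA and PGK1, differed by less than their SDs, and the step down to ENO2 (0.39 ± 0.71), TPI1 (0.38 ± 0.70), ALDOC (0.37 ± 0.93) and PGAM1 (0.23 ± 0.93) was larger than the SDs. In the 16 HIF-2α lists ALDOA was highest at 3.40 ± 2.08, followed by ENO1 at 2.94 ± 2.31, GAPDH at 1.99 ± 1.65 and PGK1 at 0.79 ± 1.77 (SD, n = 16 each), with neighbours in this order closer than their SDs. In the 18 HIF-1β lists the order was ENO1 (6.40 ± 3.26), GAPDH (5.31 ± 1.76), PGK1 (4.13 ± 1.95) and ALDOA (4.11 ± 1.83), again with neighbours within their SDs. A HIF-1α list had a median of 5 of the 8 genes called and 4 within its 100 best peaks, and a HIF-2α list had a median of 4 called and 1 within its 100 best. Of all protein-coding genes, 2.01% to 20.4% had a peak in a HIF-1α list and 0.671% to 16.0% in a HIF-2α list.

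**Figure D2:**
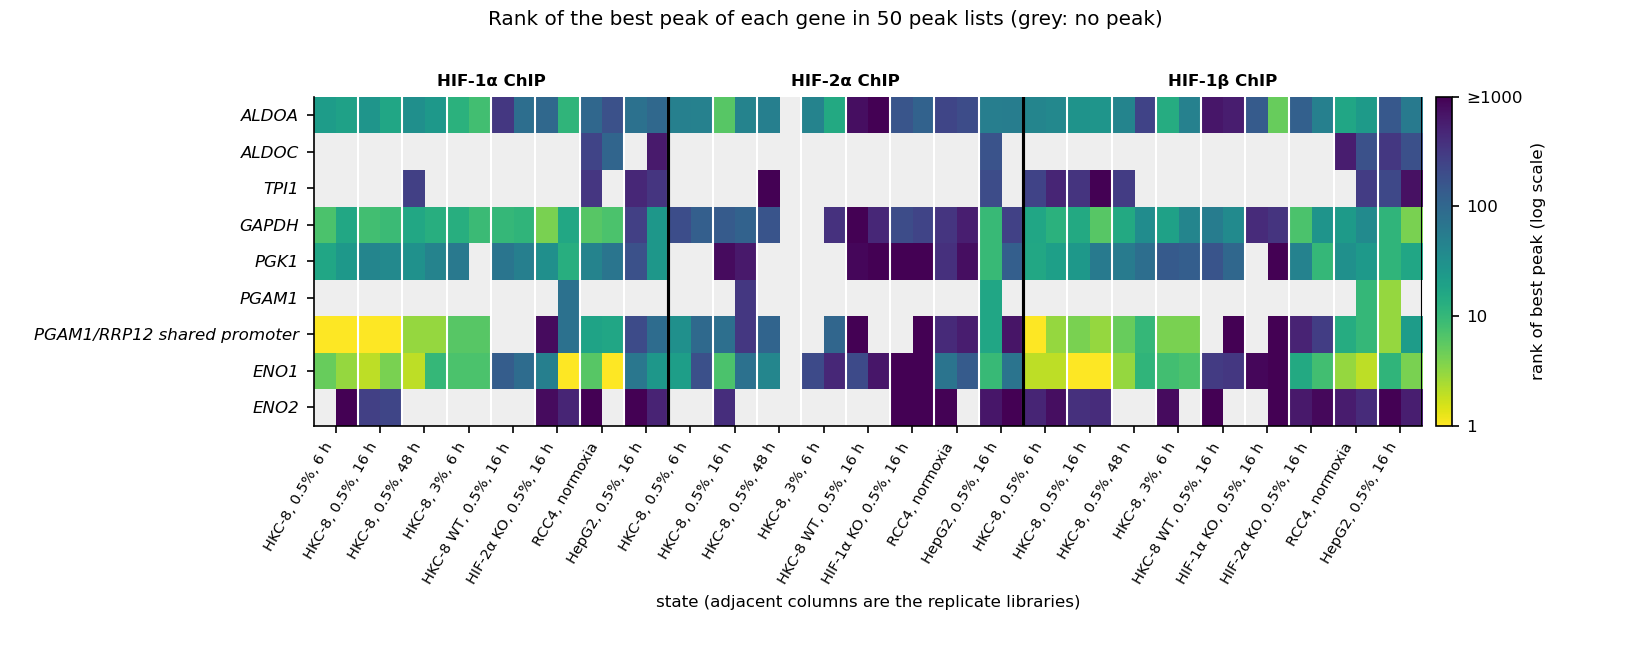
Rank of the best peak of each gene (rows) in each of the 50 lists (columns, grouped by antibody and state, with replicates adjacent), on a log colour scale from rank 1 (yellow) to 1000 or worse (dark), with grey for no peak. In HIF-1α and HIF-1β lists of the severity and duration experiment ENO1 and GAPDH rank 43 or better, both are dark with HIF-1β in HIF-1α KO cells, the shared PGAM1 and RRP12 promoter reaches rank 1 in 5 lists, and ALDOC is coloured in RCC4 and HepG2 lists only.

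ALDOA, the ubiquitous aldolase, was called at a single site (chr16:30074545-30078761), which lies at the start of its canonical transcript and in an intron of longer ALDOA transcripts. Its median peak centre was at −241, and the site was called in 16 of 16 HIF-1α lists, 15 of 16 HIF-2α lists and 18 of 18 HIF-1β lists. ALDOC, the aldolase best known from brain, had a site at its promoter (chr17:26903388-26904648, centre at −181). That site, which lies in an intron of a transcript of the neighbour RSKR, was called in 0 of 38 HKC-8 lists, 4 of 6 RCC4 lists and 4 of 6 HepG2 lists. In RCC4 it ranked 241 and 106 in HIF-1α and 579.5 and 181 in HIF-1β, and it was not called in HIF-2α. In HepG2 it ranked 324 and 187 in HIF-1β, 615 in replicate 2 labelled HIF-1α and 169 in replicate 1 labelled HIF-2α. HKC-8 lists held 237 to 8279 peaks, and the lists that called the site held 911 to 6851. Of all protein-coding genes, 0.671% to 19% had a peak in an HKC-8 list and 3.39% to 20.4% in an RCC4 or HepG2 list. The share of genes with the same layout of calls as ALDOC was not counted. Why no HKC-8 list called the ALDOC site was not tested, and cell line and experiment cannot be told apart.

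TPI1 interconverts the triose phosphates, and its site lay in intron 1 (chr12:6975885-6978014, centre at 453). It was called in 4 HIF-1α, 2 HIF-2α and 8 HIF-1β lists, with ranks from 201 to 1195 and a median of 342.5. None of the 14 lists of the knockout experiment called it, whereas 7 of 24 lists of the severity and duration experiment, 2 of 6 of RCC4 and 5 of 6 of HepG2 did. Of all protein-coding genes, 3.71% to 19% had a peak in a list of the knockout experiment. The share of genes with the same layout of calls as TPI1 was not counted. GAPDH, the dehydrogenase of the pathway, was called at a broad site (chr12:6640922-6646396, centre at −604) with a median rank of 21 where called and a best rank of 4.

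The GAPDH site was made of a part over the upstream cores at −989 and −957 and a part over the start. In 36 of the 48 lists that called it 1 peak covered both parts. In 9 lists, all of the severity and duration experiment, the parts were called as 2 peaks, namely in 6 HIF-1α, 2 HIF-2α and 1 HIF-1β lists. The peak at the start ranked better in 8 of these 9, for example 16 against 51 for HIF-1α in replicate 2 at 6 h and 9 against 568.5 for HIF-1α in replicate 2 at 3% oxygen. The exception was HIF-2α in replicate 2 at 3% oxygen, with rank 447 at the start and 371.5 upstream. In 3 lists only the upstream part was called, and these were HIF-2α of both replicates at 6 h and of replicate 1 at 16 h in 0.5% oxygen, with centres at −955, −978 and −1011. Median peak width per list was 139 to 896 bp in the severity and duration experiment. It was 978 to 1131 bp in the knockout experiment and 731 to 1224 bp in RCC4 and HepG2. Whether the layout of the GAPDH site differs between isoforms, or goes with peak width, was not tested.

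PGK1, which forms the first ATP of the payoff phase, was called at its promoter on chromosome X (chrX:77358765-77360846, centre at −189) in 15 of 16 HIF-1α, 10 of 16 HIF-2α and 17 of 18 HIF-1β lists. PGAM1, which moves the phosphate between carbons of phosphoglycerate, starts 115 bp from the divergent gene RRP12. By nearest TSS only 5 peaks fell to PGAM1, but 42 of 50 lists had a peak at this shared promoter (chr10:99185028-99186729), of which 37 were nearer to RRP12. Those 42 peaks held a core near their own centre in 32 of 42 lists, and their centres ranged from −322 to 29. The shared promoter held the first rank in both HIF-1α replicates at 6 h and in both at 16 h in 0.5% oxygen, and in 1 HIF-1β replicate at 6 h. HIF-1α ranks were 3 and 3 at 48 h, 6 and 6 in 3% oxygen and 18 and 17 in RCC4. It ranked 100 or better in 28 lists. Which of the 2 genes such a peak serves cannot be told from its position, and values given for it below were computed after this was seen.

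ENO1, the ubiquitous enolase, had 6 sites, 5 of them upstream of the promoter. The promoter site (chr1:8937569-8940039, centre at −245) was called in 16 HIF-1α, 12 HIF-2α and 17 HIF-1β lists. It had the first rank in 4 lists, which were HIF-1β of both replicates at 16 h, HIF-1α of RCC4 replicate 2 and HIF-1α of HIF-2α KO replicate 2. A distal site with no transcript over its centre (chr1:8962676-8965132, centre at −25505) was called in 3 HIF-1α, 11 HIF-2α and 6 HIF-1β lists. In 7 lists it held the best ENO1 rank, some of which did not call the promoter. A further upstream site (chr1:8959675-8961500, centre at −21763) was called in 0 HIF-1α, 5 HIF-2α and 4 HIF-1β lists. In WT the HIF-2α lists held 4537 and 6749 peaks and the HIF-1α lists 1913 and 1535. At 6 h in 0.5% oxygen they held 1417 and 1493 against 1496 and 1319. The part of list length in the counts of both sites was not tested, and the share of all sites with such counts was not determined. No core lay within 100 bp of the median centre of these 2 sites; the nearest lay 299 bp and 138 bp away. ENO2, the enolase of neurons, was called at its promoter (chr12:7022752-7027332, centre at −136) in 8 HIF-1α, 6 HIF-2α and 13 HIF-1β lists, with a median rank of 778 and a best rank of 237. GAPDH, TPI1 and ENO2 are neighbours on chromosome 12, and the 3 differed in how often they were called.

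It was next asked whether the α-subunits ranked these genes differently. GAPDH, ENO1 and PGK1 had the better rank in lists of HIF-1α, by 4.25, 3.5 and 3.25 on the log2 rank scale over the 7 states that had both isoforms. These are factors of 19, 11.3 and 9.54 in rank. The comparison was an exact permutation test with labels exchanged within states, two-sided, over 28 libraries, and its p-values were adjusted by the Benjamini-Hochberg method over the 1478 genes with a peak in at least 7 of them. Adjusted p was 0.00655 for GAPDH, 0.00681 for ENO1 and 0.0106 for PGK1. Of all genes tested, 5.07% passed with HIF-1α higher and 6.63% with HIF-2α higher, and the median difference was 0. By size of difference GAPDH stood at position 8, ENO1 at 13 and PGK1 at 19 of the 1478.

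GAPDH ranked 6 at best, 10.5 in the median and 272 at worst in the 14 HIF-1α lists. In the 14 HIF-2α lists it ranked 9.5 at best and 305 in the median, and 2 lists did not call it. The libraries of the isoforms did not overlap in 6 of 7 states, HepG2 being the exception. Outside HepG2, all 12 HIF-1α ranks of GAPDH lay between 6 and 16 and all HIF-2α ranks at 114 or worse. ENO1 ranks in HIF-1α were 5 and 3 at 6 h, 2 and 4 at 16 h, 2 and 10 at 48 h, 7 and 7 in 3% oxygen, 132 and 88 in WT, and 6 and 1 in RCC4. Its HIF-2α ranks in the same order were 21 and 184, 7 and 76, 42 and not called, 212 and 460.5, 212 and 653, and 70 and 136. HIF-1α was above HIF-2α without overlap in each of those 6 states. The ENO1 ranks with HIF-2α of 184 at 6 h, 212 in 3% oxygen and 653 in WT were those of the distal site at −25505. With only peaks within 10 kb of a TSS, which leaves out the distal ENO1 sites, the ENO1 difference was 3.71 (adjusted exact permutation p 0.00485).

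With HIF-1α, PGK1 was called in 13 of 14 lists, and with HIF-2α in 8 of 14. Its HIF-1α ranks outside HepG2 ran from 17 to 69, apart from replicate 2 in 3% oxygen, which did not call it. Its HIF-2α ranks there were 819 and 625.5 at 16 h, 881 and 1750 in WT, and 381 and 775 in RCC4, and the 6 other HIF-2α lists did not call it. The isoforms were apart without overlap in 5 states, and 2.57% of the genes tested had HIF-1α above in at least 5. In HepG2 the library labelled HIF-2α replicate 1 ranked PGK1, GAPDH and ENO1 all at 9.5, tied at a score of 3100, and replicate 1 labelled HIF-1α ranked them 181, 272 and 64. Without HepG2 the differences were 5.09 for GAPDH, 4.19 for ENO1 and 3.96 for PGK1 (adjusted exact permutation p 0.00266, 0.00266 and 0.00399, 1241 genes). Leaving out the 48 h HIF-2α list of 237 peaks gave 4.06, 3.17 and 3.25 (adjusted exact permutation p 0.00497, 0.00791 and 0.00866).

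The shared PGAM1 promoter also ranked higher in HIF-1α lists, by 4.31 on the log2 rank scale (adjusted exact permutation p 0.00768). Without HepG2 the difference was 5.08 (adjusted exact permutation p 0.00591). Its isoforms were apart in 5 states and overlapped in HepG2 and in WT HKC-8, where HIF-1α did not call it and HIF-2α called it once, at rank 1864. ALDOA and ENO2 did not pass. ALDOA was higher in HIF-1α lists by 1.10 (adjusted exact permutation p 0.1), with HIF-1α above in 5 states, an overlap at 16 h and HIF-2α above in HepG2. Without HepG2 its difference was 1.4 (adjusted exact permutation p 0.0390), and without replicate 1 of HIF-2α at 16 h, where ALDOA ranked 6, it was 1.31 (adjusted exact permutation p 0.0139). That was the lowest value among the 28 omissions of a single library. The highest adjusted exact permutation p was 0.267, without replicate 2 of HIF-2α at 16 h. ENO2 differed by 0.22 (adjusted exact permutation p 0.505), and it was called in 6 HIF-1α and 4 HIF-2α lists of the 28. ALDOC, TPI1 and, by nearest TSS, PGAM1 had peaks in too few of these libraries to be tested.

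**Figure D3:**
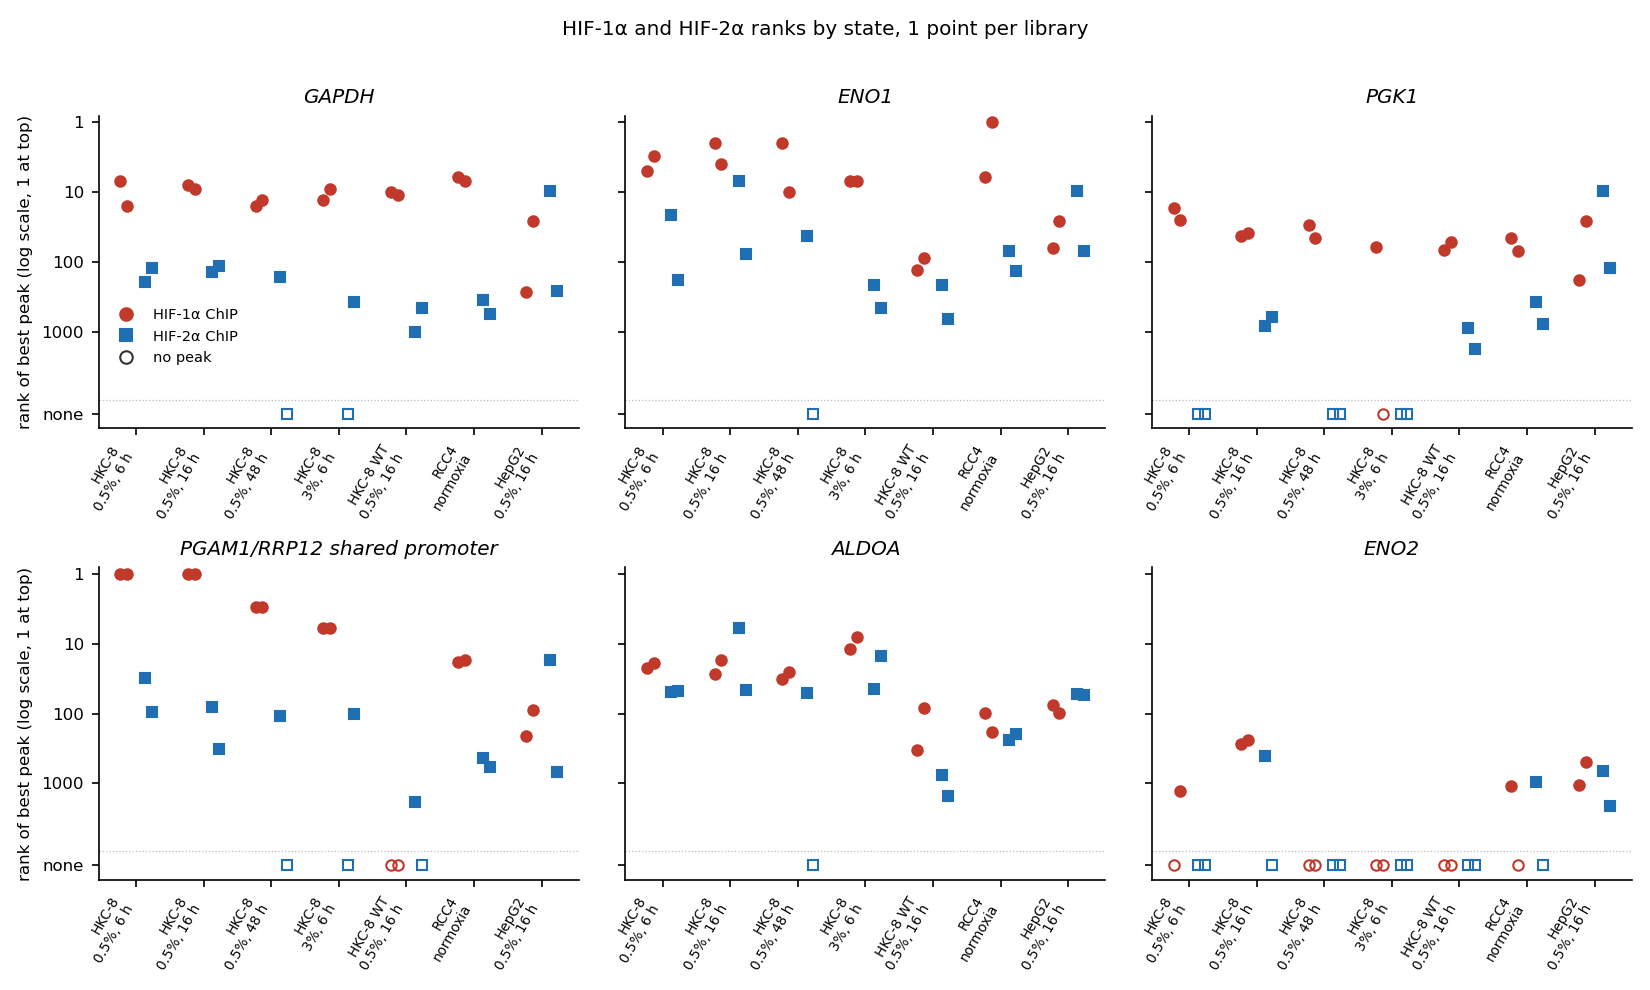
Rank of the best peak on a log axis with rank 1 at the top, for 5 genes and the promoter that PGAM1 shares with RRP12, by state; each red circle is a HIF-1α library, each blue square a HIF-2α library, and open symbols are libraries without a peak. HIF-1α lies above HIF-2α without overlap in 6 of 7 states for GAPDH and ENO1 and in 5 for PGK1, and for ALDOA in 5 with HIF-2α above in HepG2, while ENO2 was not called in most libraries.

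Other genes of glycolysis were read in the same fit for comparison. Among isozyme genes of the same steps, PGK2 had a peak in 1 list and ENO3 in 3 lists, and neither could be tested. Of 10 genes of glucose uptake and upper glycolysis, 8 were tested and 5 ranked higher with HIF-1α, with a median difference of 1.99. These were GPI (4.44, adjusted exact permutation p 0.00655), PFKFB4 (3.41, 0.00812), PFKFB3 (3.30, 0.00768), HK2 (2.20, 0.0146) and PFKL (1.78, 0.0305). SLC2A3 (0.97, adjusted exact permutation p 0.0638), PFKP (0.80, 0.189) and SLC2A1 (0.18, 0.987) did not pass. Of 6 genes at the pyruvate end, 4 were tested and 2 passed, PDK1 (3.46, adjusted exact permutation p 0.00986) and the lactate carrier SLC16A3 (2.92, 0.00812), whereas PKM (1.22, 0.169) and LDHA (0.36, 0.760) did not. None of these genes ranked higher with HIF-2α past the threshold. The 5 genes of the 8 described here that could be tested had a median difference of 3.25, against 0 over all genes tested.

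Across the 50 lists, the genes whose rank values most resembled the mean of the 8 were PFKFB3 (Spearman rho 0.873), which controls phosphofructokinase, COX20 (0.846), GPI (0.844), which makes fructose 6-phosphate, LONP1 (0.829), a mitochondrial protease, and P4HA1 (0.819), a collagen hydroxylase subunit. They were taken from 433 other genes with a peak in at least 25 lists, whose median rho was −0.0487. Within the 8, the closest pairs were PGK1 and ENO1 (rho 0.708), GAPDH and PGK1 (0.689) and GAPDH and ENO1 (0.672), whereas ALDOA had rho 0.243 with GAPDH and 0.215 with PGK1. These values describe 50 lists that share antibodies, states and list lengths.

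In the severity and duration experiment, ranks of these genes were compared between oxygen levels and times within each antibody (12 libraries each). No gene passed adjustment in any of these exact permutation tests, whose smallest possible p is 0.00926. Before adjustment, 3.65% of 850 genes had p under 0.05 for oxygen level, 3.46% of 1098 for 16 h against 6 h, and 1.71% of 818 for 48 h against 6 h. ENO1 ranked lower in 3% than in 0.5% oxygen at 6 h, by −1.70 (exact permutation p 0.00926, adjusted p 0.698). Its ranks were 7 and 7 against 5 and 3 for HIF-1α and 8 and 7 against 2 and 2 for HIF-1β. With HIF-2α they were 212 and 460.5 against 21 and 184. The ranks of 212 and 184 were those of the distal site at −25505. The promoter was not called in the first of these 2 lists and ranked 201 in the other. Libraries at 3% lay below those at 0.5% with each antibody, as they did for 1.18% of all genes tested.

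The shared PGAM1 promoter showed the same layout, at −2.12 (exact permutation p 0.00926, adjusted p 0.698). PGK1 was at −2.16 (exact permutation p 0.0556), GAPDH at −1.0 (exact permutation p 0.0556) and ALDOA at 0.88 (exact permutation p 0.0648) for the same comparison, and adjusted p was 0.698 for each. After 48 h, ALDOA lay at −1.34 relative to 6 h (exact permutation p 0.00926, adjusted p 0.953) and the shared PGAM1 promoter at −2.07 (exact permutation p 0.00926, adjusted p 0.953), both without overlap within any antibody, as were 0.489% of all genes tested. ALDOA ranks at 48 h were 32 and 25 for HIF-1α, 51 and not called for HIF-2α, and 44 and 252 for HIF-1β, against 22 and 19, 49 and 48, and 43 and 40 at 6 h. After 16 h, ENO2 stood 1.09 higher than after 6 h (exact permutation p 0.0278, adjusted p 0.701), with HIF-1α ranks of 269 and 237 against not called and 1294.5. The values at 48 h rest in part on lists that were shorter than those at 6 h. All lists at 3% oxygen (558 to 1223 peaks) were shorter than those at 0.5% for 6 h (1271 to 1496). PGK1 was not called in HIF-1α replicate 2 at 3% oxygen, a list of 656 peaks.

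The knockout experiment asked how each isoform and HIF-1β were placed when the other α-subunit was lost. With 2 libraries against 2 no exact permutation p can fall below 0.333, so these values are descriptions. With HIF-1β, ENO1 ranked 15 and 8 in HIF-2α KO and 881 and 1138 in HIF-1α KO cells, a difference of 6.42 on the log2 rank scale. PGK1 ranked 47 and 10 in HIF-2α KO, and not called and 1194 in HIF-1α KO, a difference of 5.53. GAPDH ranked 7 and 28 against 431 and 351, a difference of 4.80. ENO2 ranked 629 and 871 against not called and 2879, a difference of 0.43.

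Thus for 4 genes the HIF-1β libraries of HIF-2α KO cells lay above those of the other KO line without overlap, an arrangement found for 15% of the 2220 genes compared, with the opposite one in 13.5%. By size of difference ENO1 stood at position 3, PGK1 at 6 and GAPDH at 14. ALDOA did not share it. Its HIF-1β ranks were 120 and 50 in HIF-2α KO and 137 and 5 in HIF-1α KO, which overlap, and its HIF-1β ranks in WT were 665 and 575.5. The shared PGAM1 promoter was called at 509 and 288 in HIF-2α KO and once, at 2116, in HIF-1α KO.

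In HIF-1α KO cells the best ENO1 peak was the distal site at −25505 in all 4 lists, at 881 and 1138 with HIF-1β and 1471 and 1463 with HIF-2α. The ENO1 promoter was called there in replicate 2 only, at rank 2419 with HIF-1β and 2392 with HIF-2α. In HIF-2α KO cells the promoter led in all 4 lists and the distal site ranked 1227.5 and 810 with HIF-1β.

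For HIF-1α, 3 genes ranked higher in both HIF-2α KO than in both WT libraries, an arrangement found for 19.4% of the 1049 genes compared. ENO1 ranked 51 and 1 against 132 and 88, PGK1 32 and 13 against 68 and 51, and ENO2 808 and 495 against not called in either. GAPDH (4 and 16 against 10 and 11) and ALDOA (97 and 11 against 329 and 83) overlapped. These HIF-1α lists held 1271 and 915 peaks in HIF-2α KO and 1913 and 1535 in WT, and a shorter list gives better ranks by itself. For HIF-2α, ALDOA and GAPDH ranked higher in HIF-1α KO than in WT without overlap, an arrangement found for 8.1% of the 2912 genes compared. ALDOA ranked 161 and 113 against 771 and 1531, a difference of 2.70, and GAPDH 202 and 240 against 1015 and 463, a difference of 1.63. ENO1 went the other way with HIF-2α, at 1471 and 1463 against 212 and 653, as did 7.25% of genes. The WT rank of 212 was that of the ENO1 promoter and the other ranks were those of the distal site at −25505. These values thus compare different sites. From read signal over canonical sites, the paper reported slightly lower HIF-1α binding in HIF-2α KO cells, with slightly lower HIF-1α protein. It reported no effect of HIF-1α loss on binding by HIF-2α. A better rank here is thus not a gain in binding. Each KO line is a single clone, so clone and genotype cannot be told apart.

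**Figure D4:**
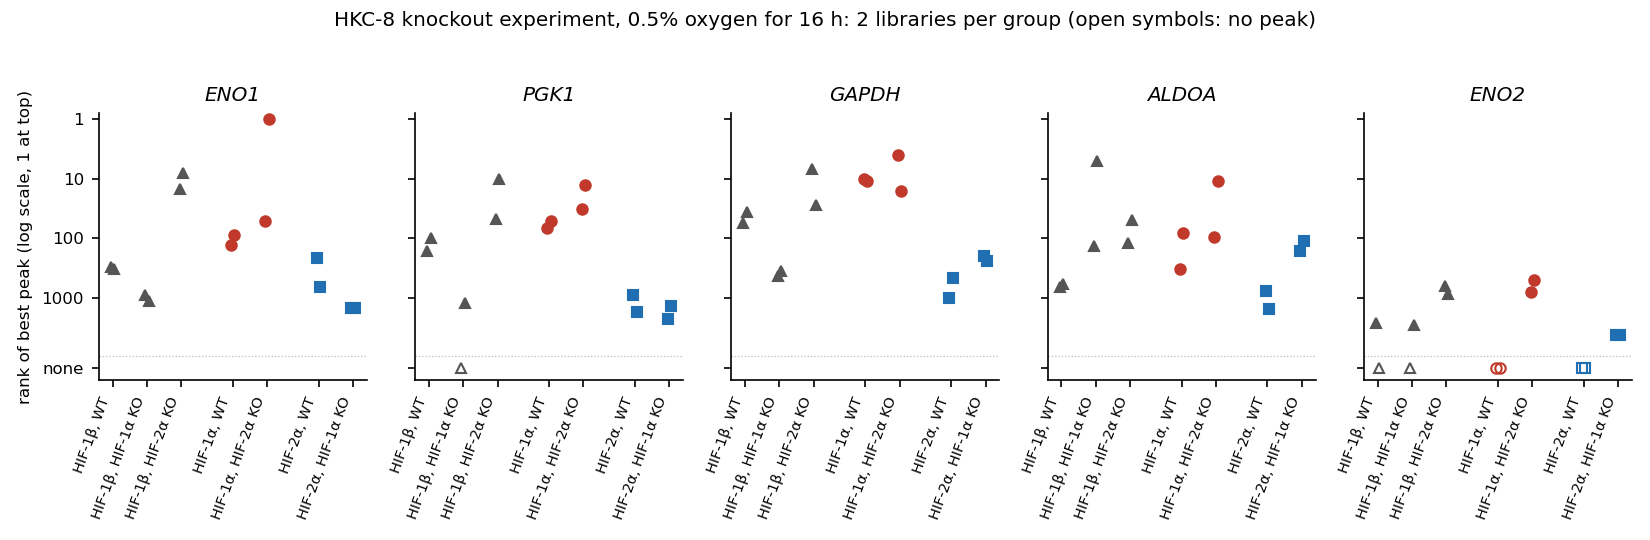
Rank of the best peak (log axis, rank 1 at the top) of 5 genes in the knockout experiment, with 2 libraries per antibody and genotype; triangles are HIF-1β, circles HIF-1α and squares HIF-2α, and open symbols are libraries without a peak. For ENO1, PGK1 and GAPDH the HIF-1β triangles of HIF-2α KO cells lie far above those of HIF-1α KO cells, and for ALDOA they overlap.

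RCC4 and HepG2 were compared with WT HKC-8 of the knockout experiment, within antibody (12 libraries each). No gene passed adjustment in these exact permutation tests, whose smallest p is 0.00926. Before adjustment, 10.6% of 3419 genes had p under 0.05 for RCC4 and 11.4% of 4721 for HepG2. ENO1 ranked higher than in WT HKC-8 by 4.79 in RCC4 (exact permutation p 0.00926, adjusted p 0.157) and by 3.6 in HepG2 (exact permutation p 0.00926, adjusted p 0.132), without overlap within any antibody. That arrangement was found for 1.52% of genes in RCC4 and 2.94% in HepG2. The other differences in RCC4 were 2.43 for ALDOA, 1.42 for ALDOC, 1.04 for PGK1, 0.65 for GAPDH and 0.34 for ENO2, with adjusted exact permutation p from 0.278 to 0.783. In HepG2 they were 2.60 for PGK1, 2.57 for ALDOA, 1.26 for TPI1, 1.22 for ALDOC, 1.18 for GAPDH and 0.40 for ENO2, with adjusted exact permutation p from 0.250 to 1.

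Most of these directions depended on which HKC-8 libraries were the reference. Set against HKC-8 at 0.5% for 16 h of the severity and duration experiment, a reference chosen after the data were seen, ENO1 lay at −1.06 in RCC4 and −2.25 in HepG2, ALDOA at −1.95 and −1.81, GAPDH at −1.02 and −0.48, and ENO2 at −0.99 and −0.92. PGK1 stayed above its reference, at 0.14 in RCC4 and 1.71 in HepG2, and so did ALDOC, at 1.42 and 1.22, and TPI1 in HepG2, at 1.01. No gene passed adjustment there either, of 1828 tested for RCC4 and 3394 for HepG2.

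The HKC-8 experiments themselves differed by as much. ENO1 ranked 2 and 4, 7 and 76, and 1 and 1 (in the order HIF-1α, HIF-2α, HIF-1β) in the severity and duration experiment, and 132 and 88, 212 and 653, and 300 and 323 in WT of the knockout experiment. This is a difference of 5.85 on the log2 rank scale, and it was 6.92 for the shared PGAM1 promoter, 4.38 for ALDOA, 1.66 for GAPDH and 0.89 for PGK1. For these the libraries of the experiments did not overlap with any antibody, an arrangement found for 0.913% of the 2956 genes compared, whose median difference was 0. ENO2 differed by 1.32 with overlap. HIF-2α lists held 1198 and 1051 peaks in the severity and duration experiment and 4537 and 6749 in WT. Ranks do not allow for list length. By percentile within a list (higher is better), PGK1 with HIF-2α stood at 31.7 and 40.5 against 80.6 and 74.1 in WT. GAPDH with HIF-2α overlapped, at 88.4 and 89.2 against 77.6 and 93.15, as did ENO1. ALDOA with HIF-2α stayed apart, at 99.5 and 95.7 against 83.0 and 77.3. The ENO1 rank of 653 in WT was that of its distal site at −25505. Beside these values, the share of the 100 best peaks that lay within 1 kb of a TSS had a median of 51.5% (range 15% to 67%) over the 6 libraries of the severity and duration experiment and 13.5% (3% to 31%) over the 6 of WT. It was 49.5% (7% to 58%) in RCC4, 46% (15% to 59%) in HepG2, 38% (36% to 51%) in HIF-2α KO and 9% (7% to 11%) in HIF-1α KO. The KO lines have no list of the disrupted subunit, so these medians cover different antibodies. The part of this share in the ranks was not tested. Cell line and experiment cannot be told apart, nor, for RCC4, cell line and oxygen.

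**Figure D5:**
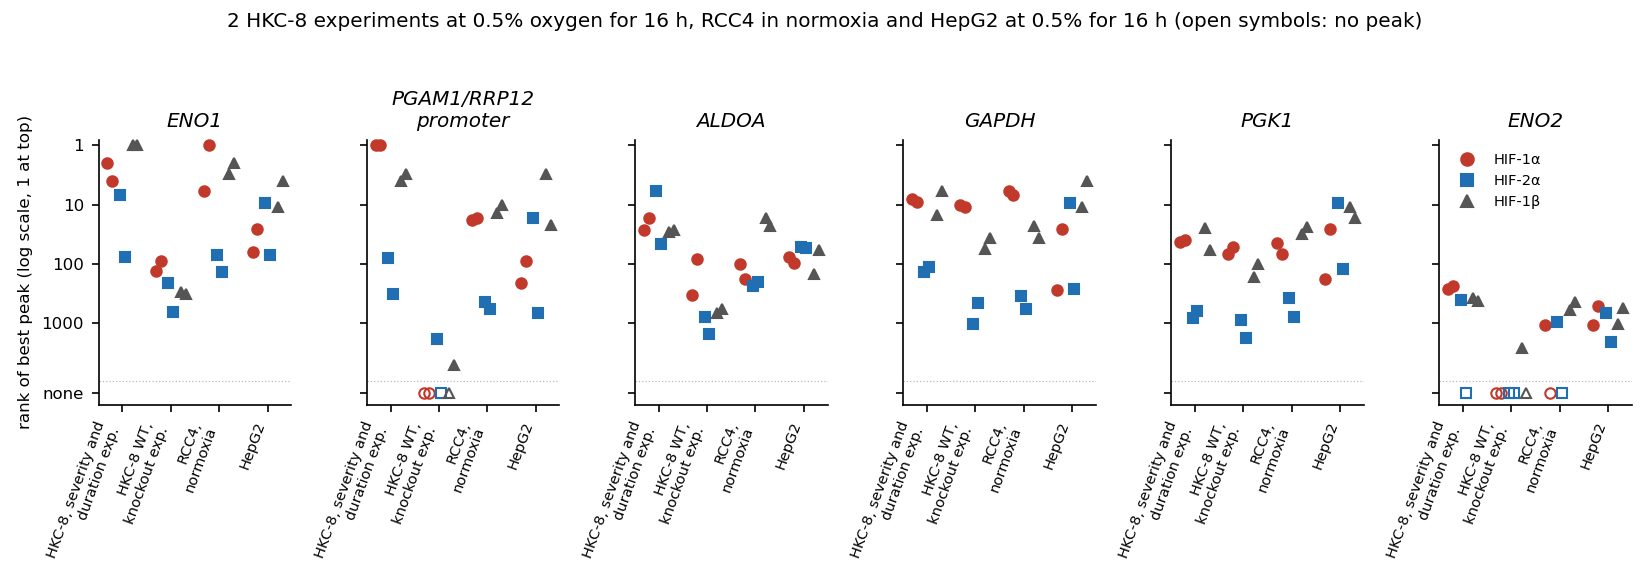
Rank of the best peak (log axis, rank 1 at the top) of 5 genes and the promoter PGAM1 shares with RRP12 in HKC-8 at 0.5% for 16 h from each of the 2 experiments, in RCC4 in normoxia and in HepG2 at 0.5% for 16 h; circles are HIF-1α, squares HIF-2α, triangles HIF-1β and open symbols no peak, 1 symbol per library. With each antibody ENO1 and the shared promoter sit lower in WT of the knockout experiment than in the other 3 groups. The ENO1 gap is small in places, with HIF-1α at 132 and 88 in WT against 64 and 26 in HepG2. GAPDH with HIF-1α stays between 6 and 11 in HKC-8 and RCC4.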

How the data were processed

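ChIP-seq peak lists of 50 libraries were used, 1 per library, and 16 input libraries served the study as controls. Per its methods, the authors trimmed reads with Trim Galore 0.3.3, aligned them to GRCh37 (hg19) with BWA 0.7.5a-r405, removed reads of mapping quality under 15 with SAMtools 0.1.19 and black-listed regions with bedtools 2.17.0, marked duplicates with Picard 1.106 and called peaks with MACS in control mode (version not given in the sources used here), each library separately. A later filter with T-PIC that the study describes is not applied in these lists. Each deposited line gives chromosome, start, end, name and a score from the authors' peak calling, read from its values (lowest 50) as the scaled negative log10 of the MACS p-value and used only as a rank within its list. Scores tie at 3100 in some lists, and ties were averaged. Read counts are not in the lists, so depth is unknown and no counting interval is given.

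Peak centres were assigned to the nearest TSS of GENCODE 44 mapped to GRCh37, at most 50 kb away or in the gene body, and overlapping peaks were merged over lists into sites. A gene's value was log2 of 1000 over its best rank, with ranks from 1000 on and uncalled genes at 0. Libraries were grouped by their labels. Two-sided exact permutation tests exchanged labels within states or antibodies, over genes with a peak in at least 7 of 28, 3 of 12 or 2 of 4 libraries, with Benjamini-Hochberg adjustment over all genes tested and a threshold of 0.05. The tests were checked on simulated data. Cores were searched on both strands in 201 bp around centres. Python 3.11.15, numpy 2.4.6, pandas 2.3.3, scipy 1.17.1, pysam 0.24.0 and matplotlib 3.10.9 were used. Named were the 8 genes, their sites called in at least 5 lists and the most often called site of each, the genes of 3 other glycolysis lists called in at least 25 lists, and the 5 genes most like the mean of the 8. PFKL, PGK2, ENO3 and RRP12 fall outside this rule and were named after their values were seen. The members and lists were chosen with earlier results of these data known. The shared PGAM1 promoter, the second HKC-8 reference and the crossed replicate block were added after the data were seen. Alternatives covered the rank cap, score, filter, distance, gene type, replicate block and left-out libraries.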

Additional observations from a re-analysis of the deposited data

Results flagged for a closer look

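ALDOA was the gene whose difference between HIF-1α and HIF-2α libraries changed direction between states without overlap of the libraries. On the log2 rank scale HIF-1α minus HIF-2α was 1.25 in HKC-8 at 0.5% oxygen for 6 h, 3.00 at 48 h, 1.41 in 3% oxygen at 6 h, 2.41 in WT of the knockout experiment and 0.70 in RCC4, with both HIF-1α libraries above both HIF-2α libraries in each. In HepG2 it was −0.69, with both libraries labelled HIF-2α above both labelled HIF-1α. The difference between these states was not tested. In HepG2 same-numbered libraries of the α-subunits moved in opposite directions around their group means (r = −0.736), as would be seen if the labels of 1 replicate were exchanged. ALDOA ranked 75 and 98 in the libraries labelled HIF-1α and 52 and 54 in those labelled HIF-2α. With the labels of replicate 1 exchanged these would be 52 and 98 against 75 and 54, which overlap, so the change of direction depends on labels that could not be checked.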

How the results depend on the processing

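Of 1534 values recomputed under alternatives, 1440 kept their direction and side of the threshold or, for counts, stayed within 1.5 times. The 173 genes called between the isoforms became 53 with ranks capped at 200, 0 by presence of a peak alone, 113 with scores of at least 100, 30 with genes called in at least 1 library, 115 within 10 kb of a TSS, 66 with the replicate block and 87 with the block crossed. Without replicates the count ran from 0 to 245, where 0 is a design of 7 libraries against 7 too small to pass adjustment, and it was 107 at lowest with 1 library left out. Same-numbered libraries correlated at −0.736 to 0.276, so the numbers were not taken as pairs; with the block GAPDH and ENO1 had adjusted exact permutation p 0.037 and PGK1 0.0492. PGK1 lost its call with ranks capped at 200 (1.64, adjusted p 0.0503) and ENO1 with the nearest gene of any type (3.05, adjusted p 0.0716). With genes called in at least 1 library, both lost it (adjusted p 0.0775 for PGK1 and 0.05, which does not pass, for ENO1). By presence alone none of the 3 passed. A core lay in 7 of 13 sites near the centre and in all 13 when whole sites were searched.

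Directions that turned were all outside the called results. PGK1 at 16 h against 6 h was 0.24 with ranks capped at 5000, 10.94 by percentile of score and 0.3333 by presence. By percentile, ALDOA for oxygen level was −0.31 and GAPDH in RCC4 −0.15. With the nearest gene of any type, GAPDH for oxygen level was 0.16, ALDOA at 16 h −0.05846 and ENO1 at 48 h 1.54. ENO2 between isoforms ran from −0.00797 to 0.4383 without replicates, and TPI1 in duration, 48 h against 6 h at 0.5%, from −0.2172 to 0.5459. With the other HKC-8 reference, RCC4 and HepG2 gave −1.95 and −1.81 for ALDOA, −1.02 and −0.48 for GAPDH, −1.06 and −2.25 for ENO1 and −0.99 and −0.92 for ENO2. The causes were not tested. Unknown depth limits every statement on an uncalled gene: no peak in a list does not show that nothing was bound.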
